A study of Mus musculus with 3 samples.

Results

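The Krüppel-like factors Klf2, Klf3, Klf4, Klf6, Klf10 and Klf13 were read in 3 single-cell libraries of early lymphoid progenitors from mouse bone marrow. They were chosen by name, not by their values, and are 6 of the 27998 genes in the deposited tables. The study sorted C57BL/6 cells at steps towards innate lymphoid cells (ILCs) and made 1 library of 10x Chromium v2 chemistry per population. The ALP library holds all-lymphoid progenitors, which were positive for Kit, 2B4 and IL-7Ra, high for Flt3, and negative for a4b7 and lineage (Lin) antigens. ILCpro_WT holds ILC progenitors, Lin- Kit+ 2B4+ cells that had a4b7 and a reporter read as Tcf7+; Tcf7 encodes TCF-1. The mice of these libraries were Tcf7EGFP/+, so "WT" stands for 1 reporter allele and 1 normal allele. ILCpro_KO holds cells of that second gate from Tcf7EGFPnull/- mice. With 1 library per group no difference between groups can be tested, and the number of mice behind each library is not given in the sources used here.

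Krüppel-like factors are DNA-binding proteins with zinc fingers at their carboxyl end that recognise GC-rich and CACCC sequences. Their amino ends differ and recruit coactivators or corepressors, so that members can switch the same kind of site on or off. In lymphocytes KLF2 is best known for holding naive T cells at rest and for driving genes of exit from lymphoid organs, and KLF4 and KLF6 for roles in myeloid cells. KLF3 is a repressor that works through CtBP, KLF10 is an early response gene of TGF-beta, and KLF13 drives late expression of the chemokine gene Ccl5 in T cells.

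Promoter sequence was taken from RefSeq (GRCm38.p6) for 3 of the 5 members that matched the promoter table, which were Klf2, Klf3, Klf4, Klf6 and Klf13. Motifs were searched on both strands from 250 bases before to 50 bases after each start. Klf3 is shown because its level differed most between the libraries, with the family's own motif CACCC (or GGGTG on the other strand) in capitals. Klf2 is shown for the MEF2 consensus, in capitals, since the MEF2 factors are textbook activators of this gene and Mef2c is among the genes described here. Klf6 is shown because it was highest in cells called G2/M, with capitals for CCAAT (or ATTGG) and for TTTGAA or TTCGAA, the letters of the cell cycle homology region. Each stretch is on the plus strand and ends before the start of the gene in both RefSeq and GENCODE.
Klf3, chr5:64803271-64803387: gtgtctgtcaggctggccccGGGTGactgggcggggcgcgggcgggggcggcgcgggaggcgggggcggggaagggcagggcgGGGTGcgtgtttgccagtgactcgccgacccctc
Klf2, chr8:72318812-72319032: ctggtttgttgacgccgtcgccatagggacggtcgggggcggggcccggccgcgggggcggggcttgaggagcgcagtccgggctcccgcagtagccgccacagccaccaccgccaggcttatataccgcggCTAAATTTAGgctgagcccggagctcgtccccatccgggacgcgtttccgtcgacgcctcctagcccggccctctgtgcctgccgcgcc
Klf6, chr13:5861239-5861481: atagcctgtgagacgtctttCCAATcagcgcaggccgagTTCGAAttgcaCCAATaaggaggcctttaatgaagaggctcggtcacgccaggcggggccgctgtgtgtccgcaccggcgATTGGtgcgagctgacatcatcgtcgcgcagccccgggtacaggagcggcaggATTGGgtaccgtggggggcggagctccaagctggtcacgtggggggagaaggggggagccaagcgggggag

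The Klf3 window held 5 CACCC matches, of which the 2 farthest from the start, 230 and 167 bases before it, are printed. At least 1 such match stood in 57.5% of the 32851 promoters of the table and 3 or more in 9.35%. The MEF2 match of Klf2 lay 118 bases before the start, and 0.557% of promoters held this motif. Klf6 held 4 CCAAT matches, against 3 or more in 3.37% of promoters, and 2 matches to the homology region letters, against 2 or more in 2.54%. Of the latter, 1 lay 211 bases before the start and 1 lay 18 bases after it, outside the printed stretch. Klf13 held 1 CACCC and 2 CCAAT matches, and the Klf4 window held none of the 4 motifs. A match describes letters in a window and does not show that a factor binds there.

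In GENCODE vM21 on GRCm38, all 6 members are protein-coding genes. Klf2 (ENSMUSG00000055148) spans chr8:72319033-72321656 on the plus strand, Klf3 (ENSMUSG00000029178) chr5:64803388-64832901 on the plus strand and Klf4 (ENSMUSG00000003032) chr4:55527143-55532466 on the minus strand. Klf6 (ENSMUSG00000000078) spans chr13:5861482-5870394 on the plus strand, Klf10 (ENSMUSG00000037465) chr15:38291463-38300706 on the minus strand and Klf13 (ENSMUSG00000052040) chr7:63886351-63938915 on the minus strand. Klf3 overlaps Gm20033 on the other strand and C230096K16Rik on its own. Klf13 overlaps Gm27252 and E030018B13Rik on the other strand. Whether counting used the strand is not given in the sources used here, so reads of Klf3 and Klf13 could include reads of these neighbours. Of the neighbours, E030018B13Rik was counted with 0 UMIs in each library.

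After filtering, 810 ALP, 1829 ILCpro_WT and 716 ILCpro_KO cells held 4115605, 6094683 and 4384061 unique transcript counts (UMIs). The median cell had 4544.5, 2897 and 5309 UMIs in that order. Tcf7, the targeted gene, stood at 1.46 counts per 1000000 UMIs (CPM) in ALP, 362 in ILCpro_WT and 57.3 in ILCpro_KO; which part of the gene the null allele lacks is not given in the sources used here. The 8 ALP markers in the table summed to 2515 CPM in ALP, 582 in ILCpro_WT and 684 in ILCpro_KO, and the 10 ILC precursor markers to 222, 2607 and 1051 CPM, with Cxcr6 at 0 in ALP. Markers of other lineages were present in spite of the lineage gate: the 12 neutrophil and monocyte markers summed to 998, 495 and 4757 CPM, with Ngp and Camp at 0 in ILCpro_WT, and the 12 conventional dendritic cell (cDC) markers to 806, 752 and 1617. Libraries shared at most 4 cell barcodes.

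Levels are UMIs summed over the cells of a library and scaled to CPM, and each range in brackets is an exact 95% interval. All intervals cover counting error only, not differences between animals or preparations. In sums over a library, fewer expressing cells and less RNA per cell cannot be told apart. Klf3 had the highest level of the 6 in ALP, and Klf13 the highest in both ILC progenitor libraries. Since a UMI tags a transcript and not a fragment of it, CPM was not divided by length. Klf2 and Klf4 were the lowest of the 6 in each library.

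**Figure D1:**
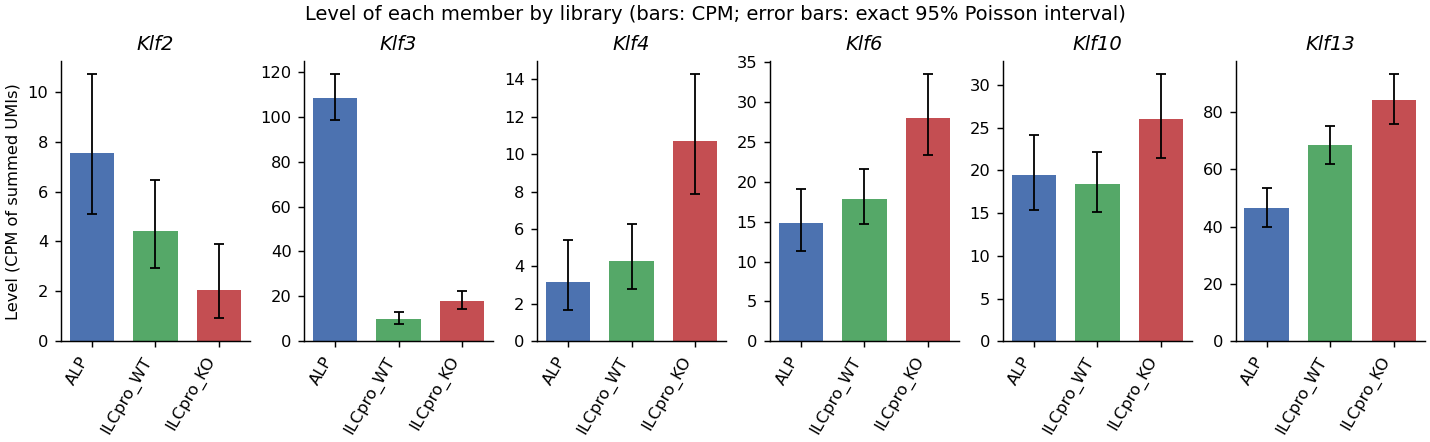
Level of the 6 factors in the 3 libraries as CPM of summed UMIs, 1 bar per library with its exact 95% Poisson interval. Klf3 stands at 108 CPM in ALP and at 10.0 and 18.0 in the ILC progenitor libraries, while Klf13 runs from 46.4 over 68.4 to 84.2.

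Klf3, the CtBP-dependent repressor, was the member that separated the 2 stages. It had 446 UMIs in ALP, 61 in ILCpro_WT and 79 in ILCpro_KO, which gave 108 CPM (98.5 to 119), 10.0 CPM (7.66 to 12.9) and 18.0 CPM (14.3 to 22.5). The ALP interval lay far above both others. Klf3 was thus 10.8-fold lower in ILCpro_WT than in ALP (8.27 to 14.4), and 6.01-fold lower in ILCpro_KO than in ALP (4.73 to 7.74). On the log2 scale with 10 CPM added, which shrinks ratios of low genes, the ILCpro_WT ratio to ALP was -2.56. Of 9616 genes with at least 5 CPM in either library, 16 had a lower ratio. The ratio of ILCpro_KO to ALP was -2.08, with 18 of 9644 genes lower. ILCpro_KO was 1.80-fold above ILCpro_WT (1.27 to 2.56), a difference that depended on which cells were summed, as described with the clusters.

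Klf13, the activator of late Ccl5 expression, ran the other way, with 191, 417 and 369 UMIs. The corresponding levels were 46.4 (40.1 to 53.5), 68.4 (62.0 to 75.3) and 84.2 CPM (75.8 to 93.2). The 3 intervals did not overlap. It was 1.47-fold higher in ILCpro_WT than in ALP (1.24 to 1.76), 1.81-fold higher in ILCpro_KO than in ALP (1.52 to 2.171), and 1.23-fold higher in ILCpro_KO than in ILCpro_WT (1.07 to 1.42). The last of these also depended on which cells were summed.

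The TGF-beta response gene Klf10 had 80, 112 and 114 UMIs. Its 19.4 CPM in ALP (15.4 to 24.2), 18.4 in ILCpro_WT (15.1 to 22.1) and 26.0 in ILCpro_KO (21.4 to 31.2) had overlapping intervals. The ratio of ILCpro_WT to ALP was 0.945 (0.703 to 1.28), so a difference of that pair was not detectable at this depth. ILCpro_KO was 1.41-fold above ILCpro_WT (1.08 to 1.85).

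Klf6, a broadly expressed member with known roles in myeloid cells, had 61, 109 and 123 UMIs. It stood at 14.8 CPM in ALP (11.3 to 19.0), 17.9 in ILCpro_WT (14.7 to 21.6) and 28.1 in ILCpro_KO (23.3 to 33.5). ALP and ILCpro_WT overlapped, with a ratio of 1.21 (0.874 to 1.68), and ILCpro_KO lay above both, 1.57-fold over ILCpro_WT (1.20 to 2.05) and 1.89-fold over ALP (1.38 to 2.62). The first of these ratios was 1.09 (0.755 to 1.55) without the clusters of other lineages. Those clusters held 58.5% of the Klf6 UMIs of ILCpro_KO and 1.64% of those of ALP. The ratio to ALP thus also depended on which cells were summed. With 10 CPM added, its log2 value was 0.617 with all cells and at lowest 0.0944 among the 12 alternatives described at the end.

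Klf4, which drives monocyte differentiation, was scarce, with 13, 26 and 47 UMIs. ALP at 3.16 CPM (1.68 to 5.40) and ILCpro_WT at 4.27 (2.79 to 6.25) overlapped, and ILCpro_KO at 10.7 (7.88 to 14.3) lay above both. The ILCpro_KO level was 2.51-fold that of ILCpro_WT (1.53 to 4.23) and 3.39-fold that of ALP (1.81 to 6.84). Both ratios turned below 1, to 0.690 (0.160 to 2.33) and 0.497 (0.116 to 1.68), without the clusters of other lineages described below, which held 91.5% of the ILCpro_KO Klf4 UMIs.

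Klf2, the factor of lymphocyte rest and egress, was rarer still, with 31, 27 and 9 UMIs. Its levels were 7.53 CPM in ALP (5.12 to 10.7), 4.43 in ILCpro_WT (2.92 to 6.45) and 2.05 in ILCpro_KO (0.939 to 3.90). ILCpro_KO was 3.67-fold below ALP (1.71 to 8.76). ILCpro_WT overlapped both neighbours in this order, with a ratio of 0.588 to ALP (0.338 to 1.02), and the ratio of ILCpro_KO to ILCpro_WT was 0.463 (0.192 to 1.02). The ratios to ALP include the clusters of other lineages described below. These held 12 of the 31 Klf2 UMIs of ALP, 5 of the 27 of ILCpro_WT and 4 of the 9 of ILCpro_KO. The 12 of ALP came from 12 cells led by Cd79a, so the ratios to ALP cannot be read as a difference of stage alone.

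Counted on the log2 scale with 10 CPM added, 1 member, Klf3, was at least 2-fold lower in ILCpro_WT than in ALP, beside 3.06% of all genes measured, and 0 were 2-fold higher, beside 2.11%. All members but Klf4 reached 5 CPM in that comparison. Between ILCpro_KO and ILCpro_WT, 0 members were 2-fold higher and 0 lower, beside 1.48% and 0.869% of genes, and Klf2 was the member under 5 CPM. In ILCpro_KO against ALP all 6 members were measured, with 1 (Klf3) lower and 0 higher, beside 1.43% and 2.01% of genes. Median log2 ratios of all genes were -0.07, 0.09 and 0.01 in these comparisons, and those of the measured members -0.05, 0.45 and 0.45. The comparisons share libraries pairwise, so they are not independent of each other.

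**Figure D2:**
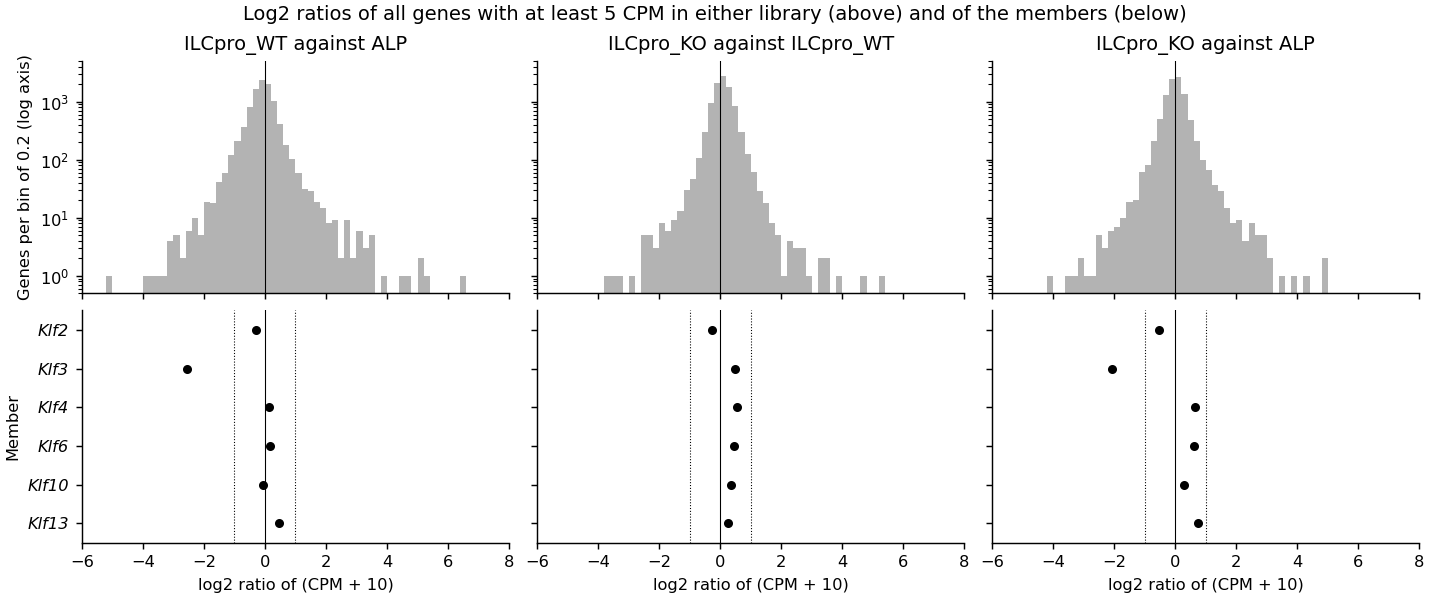
Log2 ratio of (CPM + 10) for the 3 library comparisons, as a histogram of all genes with at least 5 CPM in either library (count on a log axis) above and as 1 point per factor below, with dotted lines at 2-fold. Klf3 lies at -2.56 and -2.08 in the comparisons with ALP, and the other 5 factors lie within the dotted lines.

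To compare shares of cells at equal depth, 1000 UMIs were drawn from each cell, which left out 4 shallower ILCpro_WT cells. A Klf3 UMI was then found in 13.0% of ALP cells (10.7 to 15.5), 1.26% of ILCpro_WT cells (0.801 to 1.89) and 1.96% of ILCpro_KO cells (1.07 to 3.26). Unthinned, these shares were 35.3%, 3.06% and 9.22%. A Klf13 UMI was found in 4.81%, 6.74% and 10.1% of thinned cells in the same order, and in 18.6%, 19.0% and 36.2% unthinned. Thinned shares were 1.23%, 1.70% and 3.07% for Klf6 and 1.60%, 2.30% and 3.21% for Klf10. For Klf4 and Klf2 every share was below 1.3%, a range near that of single UMIs from which no order was read. No cell type sure to lack these genes was at hand, so the lowest group of at least 50 cells served as background: for Klf3 this was cluster 5 of ILCpro_KO, with a median of 9543 UMIs and, after thinning, 0 of 87 cells, which allows up to 3.45%. That limit is 3 counts over the cells of the group; unthinned, 1 of the 87 cells had a Klf3 UMI. The group is too small to set a background for the ILC progenitor shares.

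All 3355 cells were clustered together, with the factors, other family members, cell type markers and cell cycle genes left out, and 15 clusters resulted. Cluster 1 was ALP-like and held 528 of the 810 ALP cells. Cluster 6, unnamed and led by dividing cells, held another 241. ILCpro_WT cells lay mainly in clusters 0 (ILCP-like, for ILC precursors, 529 cells), 3 and 4 (unnamed, 320 and 283) and 2 (unnamed, led by Egln3 and Nfil3, 210). ILCpro_KO cells lay mainly in clusters 2 (172 cells), 7 (unnamed, led by Bhlhe41, Cd7 and Asb2, 148), 8 (cDC-like, 105), 5 (unnamed, dividing, 87) and 9 (neutrophil-monocyte-like, 62). Library and cluster went largely together, so a cluster held mostly by 1 library may be that library rather than a type. Levels are given for the 15 groups of at least 50 cells of 1 library in 1 cluster.

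**Figure D3:**
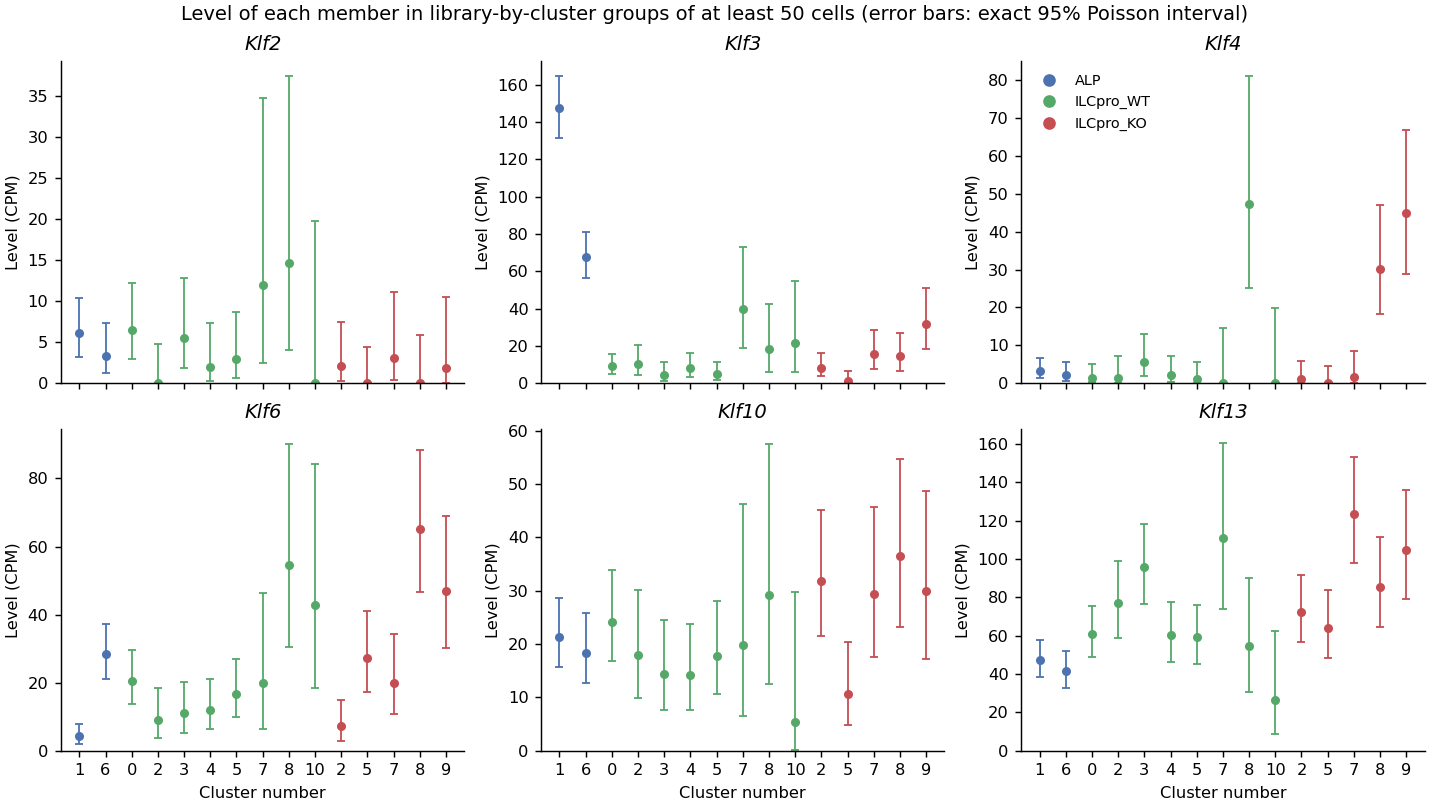
Level of each factor in CPM, with exact 95% Poisson intervals, in the 15 library-by-cluster groups of at least 50 cells, coloured by library. Klf3 is highest in the 2 ALP groups (147 and 67.8 CPM), Klf4 in cluster 8 of both ILC progenitor libraries and cluster 9 of ILCpro_KO, and Klf6 in cluster 8 of ILCpro_KO (65.0 CPM).

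Within ALP, Klf3 stood at 147 CPM in cluster 1 (132 to 165) and 67.8 in the dividing cluster 6 (56.3 to 80.9). Across the 8 ILCpro_WT groups it ran from 4.41 CPM in cluster 3 to 39.6 in cluster 7 (19.0 to 72.9), and across the 5 ILCpro_KO groups from 1.19 in cluster 5, a single UMI, to 31.8 in cluster 9 (18.5 to 50.9). Every one of the 13 ILC progenitor groups had a lower Klf3 level than both ALP groups, although the interval of ILCpro_WT cluster 7 reached into that of ALP cluster 6. The 22 T-like cells of cluster 14, all from ILCpro_KO, held 19 of the 79 Klf3 UMIs of that library.

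Klf6 had the reverse pattern within ALP, with 4.18 CPM in cluster 1 (1.91 to 7.94) and 28.3 in cluster 6 (21.1 to 37.3). In ILCpro_WT it ran from 8.97 CPM in cluster 2 to 54.7 in cluster 8 (30.6 to 90.2), and in ILCpro_KO from 7.16 in cluster 2 to 65.0 in cluster 8 (46.7 to 88.2). The cDC-like cluster was thus the highest group for Klf6 in both libraries.

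Klf4 was largely a gene of the myeloid clusters. It reached 47.4 CPM in ILCpro_WT cluster 8 (25.2 to 81.0), 30.1 in ILCpro_KO cluster 8 (18.1 to 47.1) and 44.9 in ILCpro_KO cluster 9 (28.8 to 66.8). In the 12 other groups it was at or below 5.51 CPM, with 0 UMIs in 3 of them.

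Klf13 was the most even member, between 26.7 CPM in cluster 10 (8.68 to 62.4) and 123 in ILCpro_KO cluster 7 (97.8 to 153). Cluster 7 was the highest for Klf13 in ILCpro_WT as well, at 111 CPM (73.8 to 160). Klf10 ran from 5.34 CPM in cluster 10, a single UMI, to 36.5 in ILCpro_KO cluster 8 (23.1 to 54.8). Klf2 was at or below 14.6 CPM in all 15 groups, and its largest gathering was elsewhere: the 12 ALP cells of cluster 13, unnamed and led by Cd79a, held 12 of the 31 Klf2 UMIs of ALP.

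ILCP-like cells were set beside the rest of ILCpro_WT, 592 cells of clusters 0 and 10 against 1237. The 63 cells of cluster 10 had 6 of the 10 ILCP markers raised but were low in Zbtb16 and Tcf7. These stood at 16.0 and 58.8 CPM there, against 598 and 568 in ILCpro_WT cells of cluster 0. Cluster 10 also had 3 of the 7 ILC2 markers raised. The G2/M gene Top2a stood at 615 CPM in it, against 32.0 in ILCpro_WT cells of cluster 0. Klf13 stood at 26.7 CPM in cluster 10 and 61.2 in cluster 0, and Klf6 at 42.8 and 20.6, so the pooled ratios mix unlike cells. With 10 CPM added, no member differed 2-fold, 0 higher beside 3.28% of genes and 0 lower beside 2.18%. The ratios that follow are plain ratios of CPM. Klf3 stood at 10.7 CPM in ILCP-like and 9.77 in other cells (ratio 1.09, 0.585 to 1.95), so the low Klf3 level of ILCpro_WT was found on both sides of this split. Klf13 had a ratio of 0.789 (0.618 to 0.998) and Klf6 of 1.45 (0.949 to 2.19). Klf4 had 2 UMIs against 24, a ratio of 0.235 (0.0272 to 0.948). Of those 24, 15 lay in clusters with markers of other lineages, 13 of them in the cDC-like cluster 8. As clusters come from the same cells, these ratios are descriptions.

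Clusters with markers of other lineages held 27 ALP cells (3.33%), 145 ILCpro_WT cells (7.93%) and 224 ILCpro_KO cells (31.3%). They are clusters 8, 9, 12 (NK-like) and 14, and the unnamed 11 and 13, which hold basophil, red cell or B cell markers. In ILCpro_KO these cells held 91.5% of the Klf4 UMIs, 68.4% of Klf3, 58.5% of Klf6, 44.4% of Klf2, 43.0% of Klf10 and 36.0% of Klf13. In ILCpro_WT the share was 57.7% for Klf4 and 7.19% to 18.5% for the other 5. The unnamed cluster 7 is not counted here, although 5 of the 12 cDC markers (H2-Aa, H2-Ab1, H2-Eb1, Cd74 and Batf3) were at least 2-fold higher in it than in all other cells. With cluster 7 counted too, the shares were 13.3% of ILCpro_WT and 52.0% of ILCpro_KO cells, and in ILCpro_KO these cells held 93.6% of the Klf4, 81.0% of the Klf3 and 57.7% of the Klf13 UMIs.

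**Figure D4:**
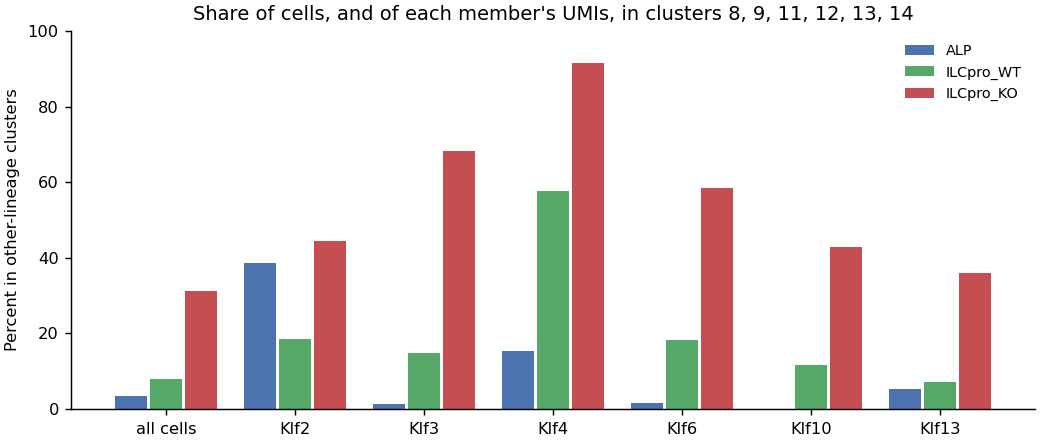
Percent of cells, and of each factor's UMIs, that lie in the 6 clusters with markers of other lineages, by library. In ILCpro_KO 31.3% of cells hold 91.5% of the Klf4 UMIs and 68.4% of the Klf3 UMIs.

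Without these clusters, the ratios of ILCpro_KO to ILCpro_WT came closer to 1 or turned below it for 5 of the 6 members. The ratio for Klf3 went from 1.80 to 0.913 (0.543 to 1.497), for Klf4 from 2.51 to 0.690 (0.160 to 2.33, on 4 and 11 UMIs) and for Klf6 from 1.57 to 1.09 (0.755 to 1.55). It was 1.25 for Klf10 (0.897 to 1.72), 1.16 for Klf13 (0.980 to 1.36) and 0.431 for Klf2 (0.128 to 1.17), after 0.463 with all cells. No interval of the 6 ratios left out 1. Against ALP, Klf3 was 11.7-fold lower in ILCpro_WT (8.79 to 16.0), after 10.8-fold with all cells, and 12.9-fold lower in ILCpro_KO (8.60 to 20.1), a larger difference than the 6.01-fold with all cells. Klf13 was 1.54-fold (1.29 to 1.85) and 1.78-fold higher (1.46 to 2.18), near its values with all cells. Without cluster 7 as well, the ratio of ILCpro_KO to ILCpro_WT was 0.831 for Klf3 (0.428 to 1.53), 0.635 for Klf4 (0.114 to 2.40), 1.05 for Klf6 (0.698 to 1.56) and 1.01 for Klf13 (0.833 to 1.22). Against ALP, Klf3 was then 13.9-fold lower in ILCpro_WT (10.1 to 19.5) and 16.7-fold lower in ILCpro_KO (10.01 to 30.1), and Klf13 was 1.497-fold (1.25 to 1.80) and 1.51-fold higher (1.21 to 1.89). Both choices of cells were added after the data were seen.

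ILCpro_KO and ILCpro_WT could also be set side by side within clusters 2, 5, 7 and 8, where both had at least 50 cells. For Klf13 the ratios were 0.945 (0.661 to 1.36), 1.08 (0.736 to 1.59), 1.11 (0.714 to 1.77) and 1.57 (0.871 to 2.99). For Klf6 they were 0.799 (0.239 to 2.67), 1.63 (0.832 to 3.25), 1.01 (0.338 to 3.62) and 1.19 (0.645 to 2.31). Klf3 had a ratio of 0.389 in cluster 7 (0.145 to 1.04), on 10 UMIs each, and Klf10 of 1.77 in cluster 2 (0.914 to 3.599). Every interval that could be computed for a member held 1. The counts are small, so these intervals also hold differences of 1.5-fold and more.

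Cells were called G1, S or G2/M from gene lists, and the share in G1 was 36.5% in ALP, 70.9% in ILCpro_WT and 45.4% in ILCpro_KO. In ALP, Klf3 stood at 229 CPM in G1 (200.4 to 261), 62.0 in S and 78.8 in G2/M, 3.27-fold higher in G1 than in the rest (2.71 to 3.96). With 10 CPM added, Klf3 was the member at least 2-fold higher in G1, beside 0.832% of genes, and 0 members were 2-fold lower, beside 3.32%. This scale shrinks the ratios of low members, such as Klf2, whose plain levels by phase are given below. ILCpro_WT had no such slope, with 10.7, 8.76 and 9.24 CPM. ILCpro_KO stood at 23.9, 16.3 and 13.8 CPM. In these libraries, again with 10 CPM added, 0 members were 2-fold higher in G1, beside 1.28% and 0.835% of genes. None was 2-fold lower, beside 3.47% and 2.83%. Compared within a phase, Klf3 was 21.4-fold lower in ILCpro_WT than in ALP in G1 cells (15.2 to 30.9), 7.08-fold lower in S cells (3.88 to 14.2) and 8.53-fold lower in G2/M cells (4.48 to 18.3). ILCpro_KO was 9.60-fold, 3.79-fold and 5.73-fold below ALP in the same phases.

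Klf6 was highest in G2/M cells of every library. It stood at 7.07 CPM in G1, 2.46 in S and 33.4 in G2/M in ALP, at 17.8, 7.30 and 31.4 in ILCpro_WT and at 26.0, 13.9 and 48.2 in ILCpro_KO. G2/M cells were 7.95-fold above the rest in ALP (4.09 to 16.9), 2.10-fold in ILCpro_WT (1.36 to 3.19) and 2.47-fold in ILCpro_KO (1.71 to 3.58). With 10 CPM added, Klf6 in ALP was the member at least 2-fold higher in G2/M in any library, beside 1.94% of genes in ALP, 2.65% in ILCpro_WT and 1.93% in ILCpro_KO. None was 2-fold lower, beside 0.519%, 1.23% and 0.766%. Without the clusters of other lineages the ratios were 8.76 (4.39 to 19.4), 1.88 (1.11 to 3.06) and 2.91 (1.62 to 5.27). Median UMIs per ALP cell were 3203.5 in G1 and 6758 in G2/M, and the part of depth in these phase levels was not tested.

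**Figure D5:**
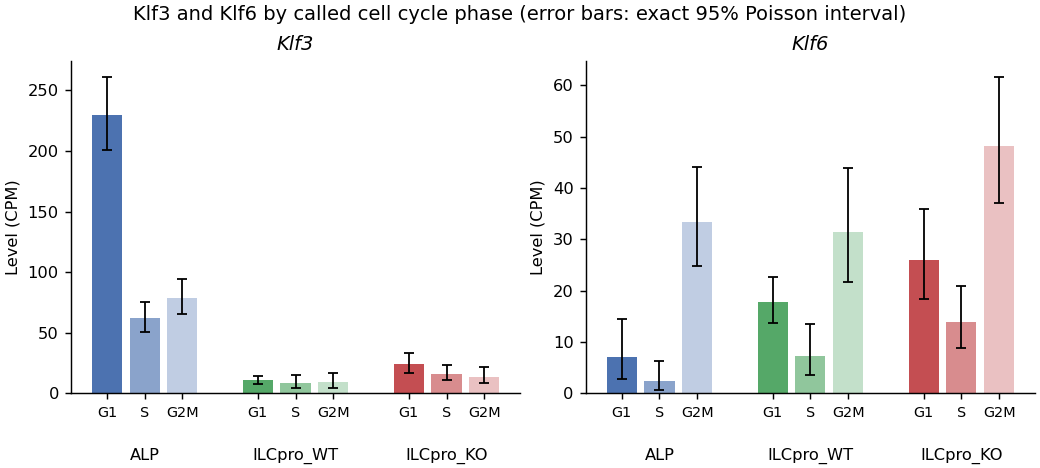
Klf3 (left) and Klf6 (right) by library and called cell cycle phase, as bars of CPM with exact 95% Poisson intervals. Klf3 peaks in G1 cells of ALP at 229 CPM, and Klf6 is highest in G2/M cells of each library, at 33.4, 31.4 and 48.2 CPM.

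Phase differences of the other members rested on fewer UMIs or were smaller. Klf13 in ILCpro_KO was 1.36-fold higher in G1 than in the rest (1.10 to 1.68), and its ratio of G1 to the rest was 1.24 in ALP (0.891 to 1.72) and 1.17 in ILCpro_WT (0.958 to 1.44). Klf4 in ILCpro_KO was 2.91-fold higher in G2/M cells (1.58 to 5.44), but 4 Klf4 UMIs remained in that library without the other lineages. Klf2 in ALP had 17 of its 31 UMIs in G1 cells, at 17.2 CPM against 4.48 in the rest. The 12 Cd79a-led cells held 12 of the 31, and without the clusters of other lineages G1 cells stood at 5.17 CPM against 4.61 (ratio 1.12, 0.316 to 3.29). ALP cells without a UMI of Dntt, the DNA polymerase that adds bases at antigen receptor joins, numbered 75 of 810. They had 38.9 CPM of Klf2 against 4.53 in cells with Dntt, and 41.7 CPM of Klf3 against 115; this split was added after the data were seen, and the Cd79a-led cells were not separated from it.

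Genes that act with the family were read from lists. Of the 20 other KLF and SP genes, 8 reached 5 CPM in ILCpro_WT or ALP. With 10 CPM added, 0 differed 2-fold in any comparison. Beside this stood 2.11% of all genes higher and 3.06% lower in ILCpro_WT against ALP. The shares were 1.48% and 0.869% in ILCpro_KO against ILCpro_WT, and 2.01% and 1.43% in ILCpro_KO against ALP. Sp3, a ubiquitous factor of the same zinc finger family, was the most abundant of these KLF and SP genes, at 63.7, 47.6 and 54.7 CPM in ALP, ILCpro_WT and ILCpro_KO. Low genes of the list differed more on plain CPM, where Klf9 stood at 3.16, 13.0 and 5.02. Sp7 had 0, 31 and 32 UMIs in the same order. Klf7 stood at 13.4, 24.3 and 23.5 CPM. Of 11 measured corepressors, coactivators and the KLF ligase Wwp1, 0 differed 2-fold with 10 CPM added, beside these same shares of all genes. Ctbp1, whose protein is a partner of KLF3, stood at 144, 122 and 103 CPM.

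Of the 9 genes of the MEK5, ERK5, MEF2 and FOXO branch upstream of KLF2, Mef2a and Mef2c were at least 2-fold lower in ILCpro_WT than in ALP, beside 3.06% of all genes, and 0 were higher, beside 2.11%. Mef2c had 798 CPM in ALP, 206 in ILCpro_WT and 448 in ILCpro_KO, a difference of 3.87-fold between the first pair (3.62 to 4.13). It was 2.171-fold higher in ILCpro_KO than in ILCpro_WT (2.02 to 2.33). Against ALP, ILCpro_KO had 0 of these genes past 2-fold, beside 2.01% of all genes higher and 1.43% lower.

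Genes known as targets of the members were read beside them. Ccl5, a target of KLF13, stood at 3.64 CPM in ALP, 1267 in ILCpro_WT and 255 in ILCpro_KO, so it was 4.98-fold lower in ILCpro_KO than in ILCpro_WT (4.67 to 5.31), where Klf13 was 1.23-fold higher. ILCP-like cells had 3149 CPM of Ccl5 against 601 in other ILCpro_WT cells, with Klf13 at 57.1 against 72.4. Of the ILCP-like clusters, cluster 0 had 3518 CPM of Ccl5 and cluster 10 had 379. Within cluster 7, where Klf13 was highest, Ccl5 stood at 808 CPM in ILCpro_KO and 769 in ILCpro_WT. Lgals3, repressed by KLF3, stood at 8.50, 33.8 and 110 CPM. In ILCpro_KO 76.3% of its UMIs lay in the neutrophil-monocyte-like cluster 9, and without the clusters of other lineages it had 2.75, 18.9 and 10.9 CPM. The KLF2 target S1pr1 stood at 1.21, 0.984 and 1.37 CPM, near the level of 3 UMIs (0.729, 0.492 and 0.684 CPM).

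The pattern of each member over the 15 groups was compared with 4261 genes as Pearson's r of log2(CPM + 10). These groups share 3 libraries and differ in depth, so r is a description. Most like Klf3 were Rgl1 (0.83), Wfdc17 (0.82) and Blnk (0.82), whose rank correlations of 0.39, 0.67 and 0.51 were lower. Klf6 was most like Plp2 (0.90) and Ifi30 (0.88), with rank correlations of 0.90 and 0.91, and Edem1 (0.86). Klf4, on 80 UMIs, was most like Mnda (0.92), Aif1 (0.91) and Rassf4 (0.90), with rank correlations of 0.41, 0.50 and 0.38. Klf10 was nearest to Fes (0.85), Ncf4 (0.83) and Dnajb14 (0.81), and Klf13 to Ptpn1 (0.81), Sbds (0.81) and Nfkbib (0.80). Klf2 had 50 UMIs in these groups, and its nearest genes were Epc1 (0.87), Hcfc1r1 (0.75) and Arhgap4 (0.74).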

How the data were processed

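The values deposited by the authors are whole counts of UMIs for each gene in each barcode. The submitters' processing notes list Cell Ranger 2.0.1, bcl2fastq 2.17, STAR 2.5.1b and, as the genome, mm10; cell calling settings are not given in the sources used here. Cells with at least 500 genes and at most 10% mitochondrial UMIs were kept (810 of 812, 1829 of 1834 and 716 of 716). UMIs were summed per library, cluster or phase and scaled to CPM. Log2 ratios, and counts of genes or members past 2-fold, have 10 CPM added to both sides unless another amount is given. Folds quoted for single genes are plain ratios of CPM. Intervals at 95% are exact: Poisson for levels, conditional binomial for ratios, Clopper-Pearson for shares. With 1 library per group no test was made. The calculation of ratios was tested on simulated data for more abundant genes only, above the levels of Klf2, Klf4, Klf6 and Klf10.

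Clusters came from scanpy 1.11.5 and leidenalg 0.10.2 (resolution 1.0, 15 neighbours, 30 components, 2000 variable genes, no integration). A cluster was called X-like with at least 3 markers 2-fold above all other cells and no stronger type among its 10 leading genes; its details postdate a look at the data. Doublets were kept, and an alternative removed the 36 highest Scrublet scores. TMM factors came from edgeR 4.0.16 in R 4.3.3. Neighbours were taken from GENCODE vM21. The members, 10 gene lists and markers were chosen with earlier results of these data known, and the motifs after them. Named genes are the 6 members, up to 3 genes most like each, up to 4 genes per list with the largest ratio, and every gene of short partner or target counts.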

Additional observations from a re-analysis of the deposited data

How the results depend on the processing

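No paired analysis was possible because each group has 1 library. Each log2 ratio was recomputed under 10 alternatives and 2 added after the data were seen. Klf3 in ILCpro_WT against ALP ran from -3.53 (G1 cells) to -1.40 (50 CPM added), and in ILCpro_KO against ALP from -2.85 to -1.22, so neither changed direction or left the 2-fold side in these. Klf13 kept its direction in all 3 comparisons under the 12. With 1 CPM added, 1 member (Klf4) was at least 2-fold higher in ILCpro_KO than in ILCpro_WT, beside 5.21% of genes, and 1 (Klf4) than in ALP, beside 5.19%, and 2 (Klf2 and Klf3) were lower than in ALP, beside 4.12%; in G1 cells alone 1 (Klf6) was higher than in ALP, beside 2.70%. Leaving out the clusters named for other lineages turned Klf4 to -0.083 against ILCpro_WT and -0.17 against ALP. Leaving out the unnamed clusters 11 and 13 too gave -0.076 and -0.17, and turned Klf3 in ILCpro_KO against ILCpro_WT to -0.062. Without cluster 7 as well these were -0.093, -0.17 and -0.11. In these alternatives fewer cells were summed. Klf4 and Klf10 in ILCpro_WT against ALP, with intervals that held 1, kept their sign in 8 and 9 of 12. TMM factors moved the median log2 ratio of all genes in ILCpro_KO against ILCpro_WT from 0.09 to -0.02, and the 6 members kept their directions there. Of the shares of cells recomputed at other depths or without thinning, 42 left their intervals and 12 did not. Klf2 and Klf4, with 9 to 47 UMIs per library, are limited by depth.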

Other observations

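Growth arrest and cell cycle genes gave a background to the phase differences of Klf3 and Klf6. With 10 CPM added, 1 of 10 genes of quiescence was at least 2-fold higher in ILCpro_WT than in ALP, beside 2.11% of all genes. It was Cdkn1c, an inhibitor of cyclin-dependent kinases, with 1.94 CPM in ALP, 23.1 in ILCpro_WT and 18.7 in ILCpro_KO. Slfn2, which keeps T cells at rest, stood at 10.5, 24.9 and 79.1 CPM and was at least 2-fold higher in ILCpro_KO than in both other libraries, beside 1.48% of all genes against ILCpro_WT and 2.01% against ALP. Of the 22 G2/M genes, 15 were at least 2-fold lower in ILCpro_WT than in ALP with 10 CPM added, beside 3.06% of all genes. Ccnb1 (cyclin B1) stood at 98.2 CPM in ALP and 26.6 in ILCpro_WT. The share of G2/M cells was 25.4% in ALP, 11.4% in ILCpro_WT and 20.5% in ILCpro_KO. Phases were called with these same 22 genes and the S phase list, so the shares and the count of 15 genes are not independent.

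Of the TGF-beta genes upstream of Klf10, 11 of 13 were measured in each comparison. With 10 CPM added, 0 differed 2-fold, beside 0.869% to 3.06% of all genes in 1 direction. On plain CPM some passed 2-fold. The inhibitor gene Smad7 stood at 59.0 in ALP, 28.9 in ILCpro_WT and 39.7 in ILCpro_KO. Ski and Tgfbr2 stood at 10.0 and 9.52 CPM in ILCpro_WT and at 4.33 and 4.56 in ILCpro_KO. Of 5 measured genes of egress and homing, 1 (Itgb7) was at least 2-fold higher and 1 (Cd69) lower in ILCpro_WT than in ALP, with 10 CPM added. Beside them stood 2.11% and 3.06% of all genes. The same 2 passed 2-fold in ILCpro_KO against ALP, beside 2.01% and 1.43%. Itgb7, a chain of the a4b7 integrin used in the sort, stood at 24.3, 106 and 162 CPM in ALP, ILCpro_WT and ILCpro_KO. Cd69, which holds lymphocytes in tissue, stood at 99.9, 6.23 and 17.1 CPM. Of the immediate early genes, Fos had 31.8, 9.84 and 31.5 CPM.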
